A study of Mus musculus with 7 samples.

Results

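Mast cells of mouse brains bearing GL261 tumours are described here. They were chosen by their transcripts, as cells with at least 2 unique molecular identifiers (UMIs, each standing for 1 captured transcript) of Cpa3, at least 2 in the sum of Cma1, Mcpt4 and Tpsb2, and none of Mcpt8. The rule found 152 mast cells among 40416 kept cells, or 0.376%. GL261 is a mouse glioma line grown in the brain. CD45-positive, DRAQ7-negative cells (living leukocytes) were sorted at day 21 after implantation from the left hemisphere of the tumour-bearing brain and profiled by droplet single-cell RNA sequencing of transcript 3' ends. All mice were wild-type females of 8 to 9 weeks. The untreated group gave 1 library, and PT2385, ICB and PT2385/ICB (called the combination below) gave 2 libraries each, named pool 1 and pool 2. PT2385 is an inhibitor of HIF-2α, the oxygen-sensitive factor encoded by Epas1, and was given at 10 mg/kg from day 7. The labels state 21 days of dosing, which does not accord with a harvest at day 21, so the length of treatment is uncertain. ICB is immune checkpoint blockade with antibodies against PD-1 (encoded by Pdcd1) and TIM-3 (encoded by Havcr2). The protocols name a vehicle and isotype control antibodies without saying which of them the untreated mice received. Each library pooled 5000 cells from each of 2 mice, so that p-values measure the spread between pools and not between single animals.

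Mast cells are tissue-resident leukocytes that store proteases, histamine and serotonin in granules built on a heparin-like matrix, and release them when IgE bound to the high-affinity receptor FceRI is cross-linked. They depend on Kit, the receptor of stem cell factor. In mice, connective-tissue mast cells are known for the chymases Cma1 and Mcpt4, the tryptase Tpsb2 and the carboxypeptidase Cpa3, and mucosal mast cells for the chymases Mcpt1 and Mcpt2. Mast cells of the brain are known mainly from the meninges and from around vessels, and the labels do not say whether the meninges were taken with the hemisphere. Mcpt8 is a protease of basophils, the circulating cells most like mast cells.

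The sequence before a gene's start can hold some of the signals that control it. The stretches of 4 genes are shown because these genes encode granule proteases described below and were in the sequence table used. Mcpt2 and Tpsb2 were not in it. Each is the run of 250 bases that ends at the transcription start in RefSeq (build GRCm38.p6), read 5′ to 3′ on the gene's strand. Capitals mark TGATAA or AGATAA on either strand, which are among the letters that GATA factors such as Gata2 recognise. Mcpt4 lies on the minus strand at chr14:56062311-56062560, Mcpt1 on the plus strand at chr14:56017714-56017963, Cma1 on the minus strand at chr14:55944676-55944925 and Cpa3 on the minus strand at chr3:20242182-20242431.
Mcpt4: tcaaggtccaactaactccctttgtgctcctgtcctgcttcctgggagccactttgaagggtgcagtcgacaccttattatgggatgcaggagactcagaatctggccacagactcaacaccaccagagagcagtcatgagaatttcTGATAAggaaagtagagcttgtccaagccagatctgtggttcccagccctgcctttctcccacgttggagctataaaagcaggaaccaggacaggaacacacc
Mcpt1: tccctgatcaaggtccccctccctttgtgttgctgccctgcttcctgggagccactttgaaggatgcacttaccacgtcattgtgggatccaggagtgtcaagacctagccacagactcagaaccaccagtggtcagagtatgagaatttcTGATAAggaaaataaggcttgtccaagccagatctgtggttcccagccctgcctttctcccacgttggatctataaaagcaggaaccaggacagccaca
Cma1: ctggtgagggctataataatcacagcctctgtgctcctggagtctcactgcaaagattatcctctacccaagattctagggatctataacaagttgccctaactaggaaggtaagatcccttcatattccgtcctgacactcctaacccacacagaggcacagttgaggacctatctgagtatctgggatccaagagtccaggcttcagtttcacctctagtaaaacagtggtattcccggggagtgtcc
Cpa3: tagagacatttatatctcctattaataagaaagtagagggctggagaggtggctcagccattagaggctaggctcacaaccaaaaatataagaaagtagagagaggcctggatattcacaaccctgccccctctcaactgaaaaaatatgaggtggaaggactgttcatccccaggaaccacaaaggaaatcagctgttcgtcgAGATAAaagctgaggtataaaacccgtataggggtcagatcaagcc
The Mcpt4 and Mcpt1 stretches were alike, with 209 identical bases, or 83.6% of 250, in a global alignment. The other 9 pairs among Mcpt4, Mcpt1, Cma1, Cpa3 and Mcpt8 reached 49.6% to 56.4%. Mcpt4 and Mcpt1 each hold 1 TGATAA, starting 103 and 99 bases before the start, and Cpa3 holds 1 AGATAA, 46 bases before it. Cma1 and Mcpt8 hold neither in this window, and other forms of the GATA motif were not searched for. Of 32851 mouse promoter windows of the same length, 16.6% hold at least 1 of these motifs. A match describes letters only and does not show a bound site. Of 14 genes looked up, 11 matched the table, and Cma2 was the other one without an entry. Among the matched genes not shown, Kit, Hdc, Tph1 and Gata2 hold neither motif, Fcer1a holds 1 AGATAA and Ms4a2 holds 3.

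Library totals ran from 59839154 to 81960504 UMIs. Cells were kept from 300 detected genes upwards if mitochondrial UMIs were no more than 10%, which left 4847 to 7961 per library. In all, 174 barcode sequences were kept in more than 1 library, no mast cell barcode was a mast cell in another library, and 1 was a kept cell in another. Mast cells were shallower than the other kept cells in each library, with medians of 5509 to 8330 UMIs against 8375 to 12036. Their median mitochondrial share was higher, at 1.96% to 3.04% against 1.23% to 1.68%. Transcripts of the rule genes were rare elsewhere: Cpa3 averaged 0.000826 to 0.0372 UMIs per other cell, and Cma1 0.0118 to 0.0465.

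The rule genes, whose levels chose the cells, were high in most members. The median mast cell of a library held 30.5 to 71 UMIs of Cpa3 and 48.5 to 119 UMIs of Cma1. Levels below are CPM, the UMIs of a gene summed over the mast cells of a library and scaled to a library total of 1e+06. Each transcript is counted at its 3' end, so no scaling by length was made. Cpa3 stood at 4994 to 10540 CPM, Cma1 at 6598 to 25234, Mcpt4 at 4510 to 12205 and Tpsb2 at 6464 to 17840. Nearly all members held a UMI of at least 1 of 5 other mast cell genes, which the rule did not use. Taken singly, Gata2 gave no UMI in 38 of the 152 cells, Fcer1a in 25, Kit in 22 and Hdc in 20. Kit, Fcer1a, Ms4a2, Hdc and Gata2 together gave no UMI in 7 of the 152 cells.

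These 7 cells were all close to the thresholds. Of 20 members with at most 3 UMIs in Cpa3 or in the other 3 proteases, 7 lacked all 5 of those genes and 7 held fewer than 1000 UMIs, while none of the other 132 lacked all 5 genes. ICB pool 1 held 15 of the 20, and 6 of its 15 were without any of the 5 genes. Just outside the rule lay 39 cells without Mcpt8 that missed one threshold, and 23 of these had none of the 5 genes. Raising both thresholds to 5 UMIs left 130 mast cells.

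The condition on Mcpt8 removed cells unevenly. Without it the rule finds 208 cells, and the 56 cells that it removes include 24 of 50 in the untreated library, 15 of 77 in ICB pool 1 and 9 of 20 in ICB pool 2. In the PT2385 pools it removed 2 of 26 and 2 of 17, and in the combination pools 1 of 7 and 3 of 11. All 56 held at least 1 UMI of Kit, Fcer1a, Ms4a2, Hdc or Gata2. In 19 of them Mcpt8 was a single UMI, and 12 held more than 20. They were deeper than the members, with medians of 10725 UMIs against 6862 in the untreated library and 14292 against 5890 in ICB pool 1.

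Cells with Mcpt8 held the mast cell proteases too, and more transcripts of dividing cells in the untreated library and ICB pool 1. In the untreated library Cma1 stood at 16068 CPM in the 24 cells with Mcpt8 and at 17662 in the 26 members, and Mcpt2 at 56372 and 54908. In ICB pool 1 Cma1 stood at 15421 CPM with Mcpt8 and 11376 in members, Cpa3 at 9617 and 5395, and Gzmb at 2112 and 683. Mcpt2 there was lower with Mcpt8, at 38196 and 44992. Mki67, a marker of cycling cells, stood at 201 CPM with Mcpt8 and 52.8 without in the untreated library, and at 147 and 53.5 in ICB pool 1. The summed level of 15 proliferation genes was 2640 against 1669 CPM in the untreated library and 2444 against 1036 in ICB pool 1. Ctsg, a neutrophil and mast cell protease, showed the same order, at 368 against 26.4 and at 449 against 44.9 CPM. With 1 library on each side these are values without a test, and each statement below on proliferation genes is about the cells left after the Mcpt8 condition.

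The share of mast cells differed more between the ICB pools than between any pair of treatment group means. It was 0.327% of kept cells in the untreated library (26 cells, exact 95% interval 0.213% to 0.478%). The PT2385 pools held 0.462% (24 cells, 0.296% to 0.687%) and 0.283% (15 cells, 0.158% to 0.466%). The ICB pools held 1.05% (62 cells, 0.809% to 1.35%) and 0.189% (11 cells, 0.0946% to 0.339%), and the combination pools 0.124% (6 cells, 0.0454% to 0.269%) and 0.148% (8 cells, 0.0637% to 0.291%). ICB pool 1 stood above all other libraries, its interval overlapping none of theirs, and the 2 combination pools were the lowest. The intervals cover counting error only.

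**Figure D1:**
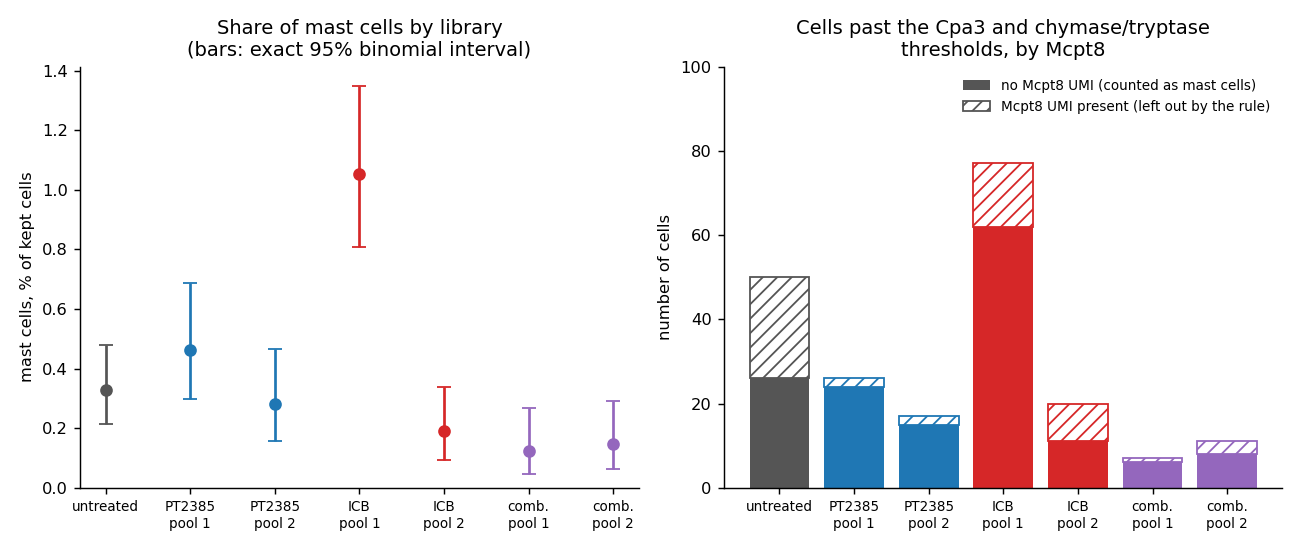
Left, share of mast cells among kept cells by library, with exact 95% binomial intervals on a linear axis. Right, number of cells past the Cpa3 and chymase or tryptase thresholds, with the cells holding Mcpt8, which the rule leaves out, hatched. ICB pool 1, at 1.05%, stands above the other 6 libraries, which lie between 0.124% and 0.462%, and the untreated library loses 24 of 50 cells to the Mcpt8 condition.

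The 4 libraries with PT2385 averaged 0.254% ± 0.155 (SD, n = 4) and the 3 without it 0.523% ± 0.464 (SD, n = 3). The difference of -0.269 percentage points was within the spread between libraries (exact permutation test, two-sided, p = 0.400, 0.800 after Benjamini-Hochberg adjustment over the 2 share comparisons). Without ICB pool 1 the difference was -0.00391. With ICB the mean was 0.379% ± 0.451 (SD, n = 4) against 0.357% ± 0.0936 (SD, n = 3), a difference of 0.0214 (exact permutation p = 0.914, adjusted 0.914), which turned to -0.204 without ICB pool 1. A design of 4 against 3 libraries can give no p below 0.0286. Fewer mast cells and more of the other sorted cells cannot be told apart in a share, and the numbers of mast cells themselves averaged 13.2 with PT2385 and 33.0 without (exact permutation p = 0.229).

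The proteases made up a large part of what these cells transcribed. Mcpt1, Mcpt2, Mcpt4, Cma1, Tpsb2 and Cpa3 together took 9.71% to 13.0% of the UMIs of mast cells in 6 libraries and 3.36% in combination pool 1, which rests on 6 cells. In other kept cells they took 0.000141% to 0.00309%. The chymases of mucosal mast cells, neither of them used by the rule, were prominent: Mcpt2 was the highest of the 6 in each library, and Mcpt1 came next in the 5 libraries outside the combination. Mcpt2 stood at 54908 CPM in untreated mast cells, at 28342 and 36361 with PT2385, at 44992 and 41084 with ICB, and at 9404 and 33301 in the combination. Mcpt1 stood at 29042 CPM in untreated cells, at 21854 and 28791 with PT2385, at 41191 and 25351 with ICB, and at 1637 and 12119 in the combination. Mcpt1 was thus lowest in the combination pools, of 6 and 8 cells, and the other 5 libraries did not separate by treatment.

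Other members of the protease list were lower. Tpsab1, a tryptase related to Tpsb2, stood at 317 to 2317 CPM and Tpsg1, a membrane-anchored tryptase, at 33.4 to 301. Gzmb, granzyme B, stood at 516 to 1452 CPM in mast cells with a median of 128 in other cells. Cma2 gave a UMI in 29 of the 152 cells, and Mcpt9 stood at 0 to 160.5 CPM. The chymase genes are related in sequence to differing degrees. In global alignments of their longest annotated transcripts (GENCODE, build GRCm38), pairs of Mcpt1, Mcpt2, Mcpt4 and Cma1 were identical at 62.2% to 82.4% of the shorter one. These 4 genes share no identical stretch of 90 bases with one another. Cma2 shares 231 of its 1009 such stretches with Mcpt9 and 11 with Mcpt4, so its counts are less certain. Of 12 listed proteases outside the rule, 6 were higher in mast cells than in other cells in each library. Over all 13842 genes with a UMI in mast cells, 4.2% were, and 20.5% were lower in each library, a contrast that the choice of cells fixes in part.

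Cells differed more in Mcpt1 than in Cma1, a rule gene whose low values are limited by the choice of cells. Among the 130 mast cells with at least 5 UMIs in Cpa3 and in the other rule proteases, Mcpt1 ran from 0 to 2076 UMIs with a median of 96. It was under 10 UMIs in 38 of them and above 100 in 63, and 12 lay between 5 and 20. Cma1 in the same cells had a median of 91 UMIs and was under 10 in 5. Mcpt4, also a rule gene, was under 10 in 17 of them and at 0 in 11. Cells under 10 UMIs of Mcpt1 and cells with 10 or more were both present in each of the 7 libraries. Cells under 10 UMIs of Mcpt1 were shallower in 6 libraries, with medians of 1125 to 6947 UMIs against 5815 to 8896, and in combination pool 1 they were deeper, with 8133 against 6609.

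Mast cells low in Mcpt1 held more Cma1 and more Mrgprb2, the receptor for basic secretagogues on connective-tissue mast cells, in most libraries. Cma1 in cells under 10 UMIs of Mcpt1 against the rest was 40411 against 13836 CPM in the untreated library, 28794 against 14892 and 43894 against 20461 with PT2385, and 24818 against 13614 in ICB pool 1. It was 44696 against 21373 in combination pool 2, while ICB pool 2 (8709 against 14015) and combination pool 1 (5445 against 10668) had the opposite order with 2 and 4 low cells. Mrgprb2 was 213 against 12.6 CPM in the untreated library, 271 against 33.5 and 242 against 45.0 with PT2385, and 289 against 71.1 in ICB pool 1. It was 288 against 75.5 in combination pool 2 and 21.4 against 0 in combination pool 1, while ICB pool 2 had the opposite order, with 0 against 31.4. Mrgprb2 rested on few counts, with 1 to 35 UMIs per library over all its mast cells. Other mast cell genes differed too, in both directions. In the untreated library Fcer1a was 2559 against 1498 CPM, Hdc 2132.5 against 1379 and Gata2 1279.5 against 541, while Tpsab1 was 995 against 1284. In ICB pool 1 the low cells held less Fcer1a (1852 against 2351 CPM), Hdc (1828 against 2154) and Gata2 (265 against 307). The cut is not scaled to depth, and in ICB pool 1 cells of 660 and 691 UMIs with 8 of Mcpt1 counted as low. The split was set after the values were seen and has no test.

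Within libraries of at least 10 such cells, the share of a cell's UMIs from Mcpt1 ranked with that from Mcpt2 in 4 libraries of 14 to 46 cells (Spearman rho 0.409 to 0.747). It ranked against Cma1 in the same 4, with rho of -0.639 to -0.177. In ICB pool 2, with 10 cells, rho was near 0 for both (0.0909 and 0.0303). Mcpt4, the other chymase of the rule, did not follow Cma1. Its rho with Mcpt1 ran from -0.554 to 0.274 in the same 4 libraries and was 0.772 in ICB pool 2. Cma1 ranked with Tpsb2 in each of the 5 (0.521 to 0.739). Both are rule genes, and the cells were chosen on a sum that holds both, so this value describes the chosen cells only. Cells of 1 library share its preparation, and the Mcpt1 share also ranked with the cell's total UMIs (rho 0.212 to 0.464).

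**Figure D2:**
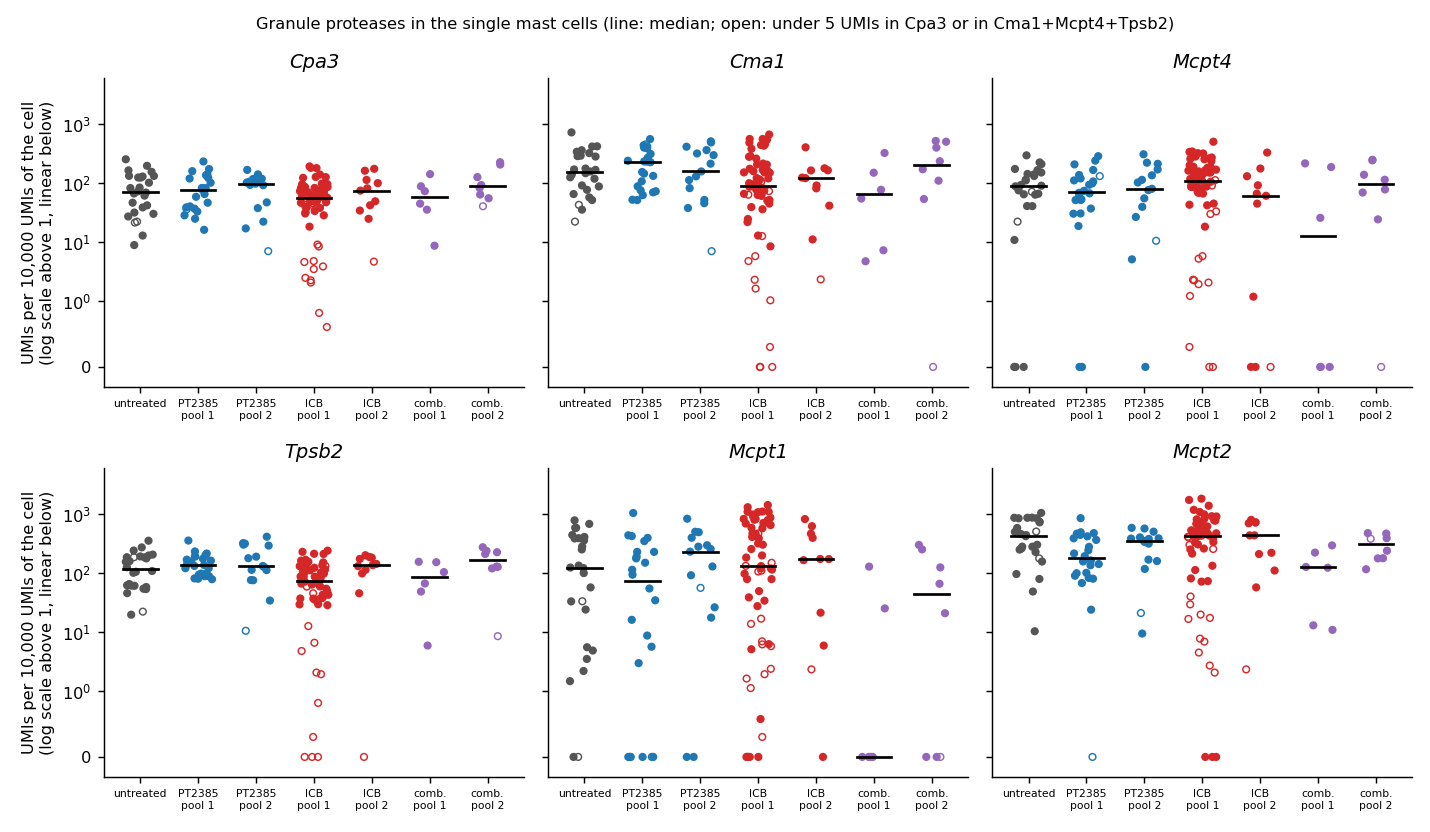
UMIs of 6 granule proteases, scaled to the cell's UMIs, in each of the 152 mast cells, by library, with the median as a line. The axis is logarithmic above 1 and linear below. Open points are cells under 5 UMIs in Cpa3 or in Cma1, Mcpt4 and Tpsb2 together. Mcpt1 spreads from 0 to its highest values within libraries, Mcpt2 less so, and most open points are in ICB pool 1.

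Receptors that define mast cells were present in each library. Kit stood at 666 CPM in untreated mast cells, at 622 and 861 with PT2385, at 537 and 551 with ICB and at 585 and 961 in the combination, against a median of 10.9 in other cells. Fcer1a, the IgE-binding chain of FceRI, stood at 1648 CPM untreated, at 1854 and 2365 with PT2385, at 1748 and 1789 with ICB and at 434 and 2575 in the combination. Its beta chain Ms4a2 stood at 227 to 481 CPM and the shared gamma chain Fcer1g at 1052 to 2784, a level that other leukocytes matched (median 2200). Kit in the ICB pools lay below the other 5 libraries (log2 fold change with ICB -0.32 ± 0.36, SE, edgeR adjusted p = 0.998). Fcer1a in the PT2385 pools lay above both ICB pools, and the combination pools spanned all other libraries. Il1rl1, the receptor of the alarmin IL-33, stood at 449 to 1356 CPM. Cd63, a granule membrane protein shown on the surface after degranulation, stood at 1453 to 3869 CPM. Mrgprb2 was low, at 16.7 to 120 CPM, and gave 73 UMIs in all. Of 32 listed surface receptors, 13 were higher than in other cells in each library and 7 were lower. Over all 13842 genes with a UMI in mast cells, 4.2% were higher and 20.5% lower in each library. Enpp3, Tacr1 and Cxcr2 gave no UMI in mast cells, so these 3 of the 7 lie outside those shares.

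Of the inhibitory receptors, Lilrb4a stood at 217 to 540 CPM and Cd200r1 at 50.1 to 155, with medians of 184 and 19.6 in other cells. Havcr2, the target of the TIM-3 antibody, stood at 122 CPM in untreated mast cells, 56.0 and 129 with PT2385, 161 and 110 with ICB, and 66.8 and 85.8 in the combination. Other cells held it at a median of 134 CPM, so that mast cells did not stand apart. Pdcd1 came to 18 UMIs in 7 of the 152 mast cells, and all 18 lay in cells that also held markers of another cell type.

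Epas1, the target of PT2385, gave 0 UMIs in the 1094856 UMIs of all mast cells. A count of 0 allows up to 2.74 CPM over all mast cells and up to 6.42 to 51.5 CPM within single libraries. Other kept cells held 1.91 to 7.02 CPM, so a level in mast cells like that of the lowest of those libraries was not detectable at this depth. Hif1a, which encodes the related HIF-1α, stood at 85.8 to 217 CPM in mast cells with a median of 436 in other cells. Of 19 hypoxia-induced genes, 14 were lower in mast cells in each library, against 20.5% of all genes with a UMI in mast cells. The 2 that were higher in each were Ndrg1 (117 to 270 CPM) and Ldha, lactate dehydrogenase A (597 to 900 CPM).

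Enzymes of amine synthesis and storage stood above the other kept cells as a whole. Hdc, which makes histamine, stood at 1553 CPM in untreated cells, at 1953 and 2018 with PT2385, at 1639 and 1495 with ICB and at 2272 and 2661 in the combination. Tph1, the rate-limiting enzyme of peripheral serotonin synthesis, stood at 468 to 1607 CPM against a mean of 0.0860 in other cells. Slc18a2, the vesicular monoamine transporter, stood at 100.2 to 206 CPM. The histamine-degrading enzyme gene Hnmt gave 1 UMI.

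The lipid mediator list was led by Alox5ap, the activating protein of 5-lipoxygenase, at 768 to 1452 CPM. Alox5 itself stood at 161 to 450 CPM with a median of 2.69 in other cells, and Hpgds, the prostaglandin D2 synthase of mast cells, at 188 to 301. Ltc4s, the leukotriene C4 synthase, stood at 0 to 116 CPM and overlapped the other cells (median 42.0). Ptgs2 and Ptgds were lower in mast cells than in other cells in each library.

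Srgn, the serglycin core protein that carries the granule's heparin chains, stood at 3608 to 7416 CPM. Ndst2, the N-sulfotransferase of mast cell heparin, stood at 44.9 to 85.8 CPM and Hs3st1 at 132 to 429. Rab27b, a small GTPase of granule release, stood at 451 to 1236 CPM against a median of 1.65 in other cells, whereas its relative Rab27a stood at 0 to 117 against 51.4. Of 14 listed exocytosis genes, 2 were higher in mast cells in each library and 6 were lower, and Syt2, Syt3 and Cplx2 gave no UMI. Over all genes with a UMI in mast cells, 4.2% were higher and 20.5% lower.

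Of the signalling genes downstream of FceRI and Kit, 4 of 19 were higher in mast cells in each library and 8 were lower. The shares over all genes with a UMI in mast cells were 4.2% and 20.5%. Lat2, an adaptor, stood at 498 to 652 CPM and Lat at 234 to 280, with medians of 102 and 41.3 in other cells. Syk, the kinase that FceRI recruits, was lower, at 34.3 to 106 CPM against 296.

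Among transcription factors Gata2 stood at 231 to 910 CPM with a median of 0.233 in other cells. Mitf, which is needed for mast cell development, stood at 83.5 to 270 CPM and was as high in other cells (median 214), many of them myeloid. Gata1 gave 24 UMIs in all. Fos was lowest in the untreated library (1162 CPM) and highest in the combination pools (3608 and 3261), and Egr1, another immediate early gene, was 261 to 1015 CPM outside the combination and 1336 and 1579 in it. These genes also respond to tissue dissociation, and the combination pools rest on 6 and 8 cells.

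Mast cells transcribed type 2 cytokines and monocyte attractants. Il4 stood at 180 CPM untreated, 187 and 270 with PT2385, 169 and 208 with ICB, and 217 and 395 in the combination, against a median of 0.744 in other cells. Il13 stood at 34.2 to 331 CPM, Tnf at 33.4 to 282 and Il6 at 0 to 270, while Il5 and Il3 gave no UMI. Ccl2, which attracts monocytes, was the highest of the listed chemokines in 6 libraries, at 2050 CPM untreated, 3988 and 4499 with PT2385, 1489 and 3492 with ICB and 1570 and 4480 in the combination. In ICB pool 2 Ccl4 was higher, at 3749 CPM. Of all Ccl2 UMIs in mast cells, 26.7% lay in the 49 cells with markers of another cell type. Ccl7, a related chemokine, stood at 1057 CPM untreated, 778 and 2789 with PT2385, 1053 and 85.8 with ICB and 66.8 and 909.8 in the combination. For Il4 the combination pools lay above both ICB pools, and for Ccl7 the 3 treated groups overlapped one another.

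**Figure D3:**
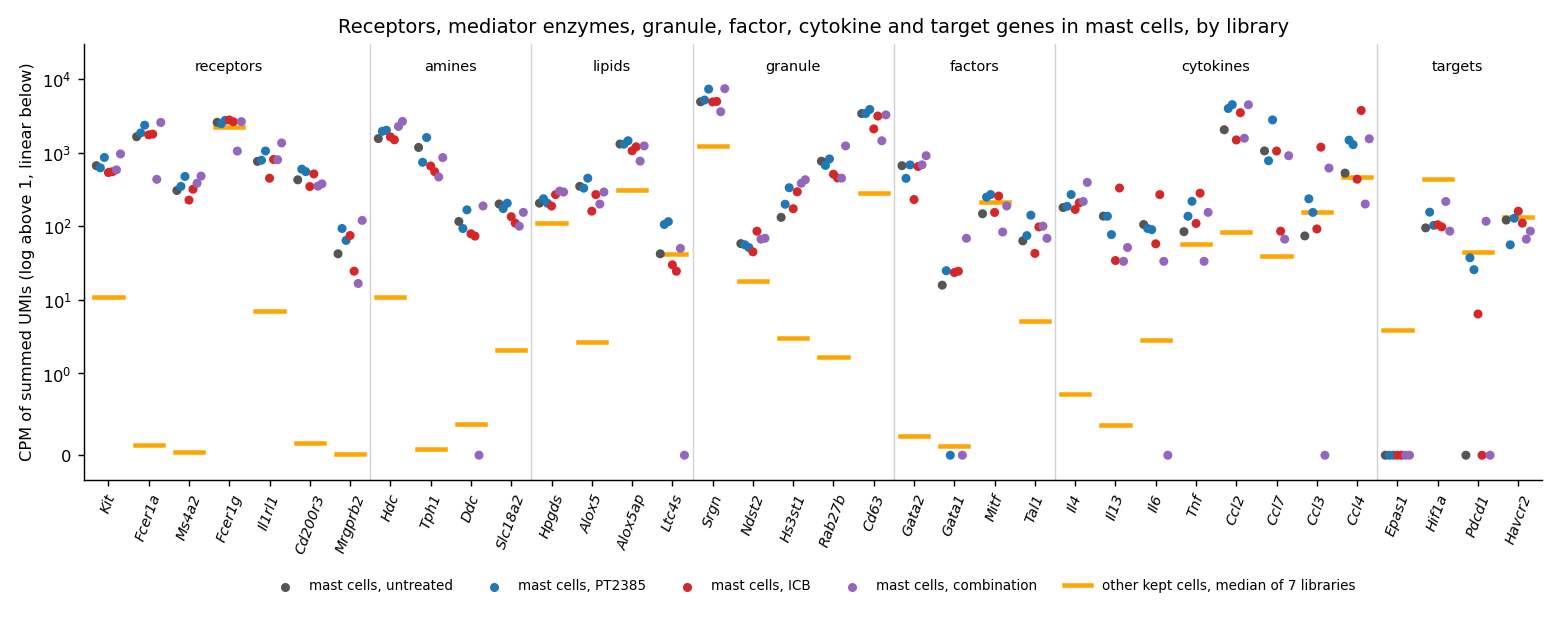
Level of named genes in mast cells, 1 point per library in the order untreated, PT2385, ICB and combination, and the median of other kept cells as an orange line. The axis is CPM of summed UMIs, logarithmic above 1 and linear below. Kit, Fcer1a, Hdc, Tph1, Gata2 and Il4 lie far above the other cells in each library, Fcer1g, Mitf and Havcr2 do not, and Epas1 is at 0.

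The 25 genes with the highest ratio of mast cells to other cells, among those of at least 100 CPM in the 5 libraries with 10 or more mast cells, were led by Tpsg1, Mcpt4, Tpsb2, Mcpt2, Tph1, Mcpt1, Cpa3, Cma1, Tpsab1 and Fcer1a. These ratios describe the choice of cells and have no test. Further down the list were genes with no place in the fixed mast cell lists, such as Rprm (167 to 515 CPM), Atp8b5 (199 to 424 CPM), Thsd4 (113 to 629 CPM), Hs6st2 (362 to 874 CPM), Car8 (184 to 380 CPM), Cobl (150 to 296 CPM) and Sox5 (195 to 721 CPM). Hs6st2 encodes a heparan sulfate sulfotransferase. Cyp11a1, which starts steroid synthesis from cholesterol, stood at 402 to 1202 CPM, and Serpinb1a, an inhibitor of chymase-like proteases, at 735 to 1728. Of 19 of the 25 genes with a promoter in the RefSeq table, 9 held TGATAA or AGATAA in at least 1 window, as did 18.8% of all 27025 genes in the table.

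Transcripts of other cell types were present in some members. By the fixed criterion, at least 2 UMIs in each of at least 2 markers of 1 other type, 49 of 152 mast cells held such markers, 10 of 26 in the untreated library, 10 of 24 and 2 of 15 with PT2385, 20 of 62 and 4 of 11 with ICB, and 2 of 6 and 1 of 8 in the combination. All 9 macrophage markers were detected in mast cells. Their summed level was 4866 CPM in untreated mast cells, 2980 and 553 with PT2385, 4973 and 12927 with ICB and 2489 and 446 in the combination, against 18173 to 34022 in other cells. In each library it was below that of the other cells. The summed level of 8 T cell markers was 68.7 to 543.6 CPM in 6 libraries and 2071 in combination pool 1, where it was above the 669 to 957 of other cells. Of 7 neutrophil markers 4 gave no UMI in mast cells. Whether these are doublets of a mast cell and a macrophage was not tested, and no caller was run.

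Gene levels within mast cells were compared between treatments over the 5 libraries with at least 10 mast cells, untreated, both PT2385 pools and both ICB pools, so that no combination library entered. With PT2385, 2 of 3377 genes passed the threshold (edgeR's quasi-likelihood test with an additive term for ICB, Benjamini-Hochberg adjusted p under 0.05), or 0.0592%. Both, Ccl8 and Apoe, were lower with PT2385. No gene was higher, while 93 were at an unadjusted p under 0.05, and DESeq2 called none higher. The direction of the calls depended on the libraries. Without PT2385 pool 1 there were 9 calls, 1 of them higher. Without PT2385 pool 2, 6 of 9 were higher, without ICB pool 1, 8 of 15, and without ICB pool 2, 11 of 21.

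Ccl8, a chemokine of macrophages, stood at 1152 CPM in untreated mast cells, at 12.4 and 0 with PT2385 and at 574 and 429 with ICB. The PT2385 pools lay below the other 3 libraries and together held 2 UMIs against 521, which makes the level without PT2385 84.2 times higher (exact interval 23.2 to 697, for counting error only, with nearly all UMIs from 1 cell in each library). Of all 3377 genes tested, 24.9% had the PT2385 pools wholly above or wholly below the other 3 libraries. The log2 fold change of Ccl8 was -7.07 ± 0.58 (SE, edgeR adjusted p = 1.02e-11). Of all 523 Ccl8 UMIs in mast cells, 520 lay in cells with markers of another type, and 216 of the 218 in the untreated library came from 1 cell. In ICB pool 1, 260 of 268 came from 1 cell. In ICB pool 2 all 35 did.

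Apoe, the apolipoprotein of macrophages and glia, fell by 2.86 on the log2 scale (SE 0.41, edgeR adjusted p = 2.84e-05). It stood at 2414 CPM in untreated mast cells, at 373 and 308 with PT2385, and at 1571 and 5881 with ICB. The PT2385 pools were again below the other 3 libraries, and 24.9% of all genes were separated in this way in either direction. Of the Apoe UMIs, 90.3% lay in cells with markers of another type. Without those cells the log2 fold change of Apoe was -0.24 in a fit over 4 libraries, while Ccl8 no longer passed the filter on low counts. Apoe is itself 1 of the macrophage markers that pick out those cells. Its share of UMIs there and its fold change without them are thus fixed in part by the criterion. Over all alternatives with a value, the adjusted p of Apoe ran from 1.34e-29 to 1.00. Other kept cells held Apoe at 6421 to 16319 CPM and Ccl8 at 249.7 to 664. Ms4a7, a macrophage membrane protein and the gene with the next smallest p above 50 CPM, stood at 158 CPM untreated, 6.22 and 25.7 with PT2385 and 79.2 and 368 with ICB. It did not pass (log2 fold change -3.62 ± 0.87, edgeR adjusted p = 0.0985), and 96 of its 100 UMIs lay in cells with markers of another type. Ms4a7 is also among the macrophage markers, so the same limit holds for it.

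The mast cell lists held none of the genes called with PT2385. None of 11 tested proteases outside the rule, 21 surface receptors, 5 amine genes, 8 granule matrix genes or 17 cytokine and chemokine genes passed in either direction by edgeR. Mcpt2 and Cma2 came closest, with log2 fold changes of -0.82 ± 0.20 and -2.72 ± 0.67 (SE, edgeR adjusted p = 0.0985 for both). Ccl2 had 0.99 ± 0.35 (edgeR adjusted p = 0.499) and Kit 0.08 ± 0.36 (edgeR adjusted p = 0.996). Of 9 macrophage markers 1, Apoe, was called lower, and 3 had a log2 fold change above 0. The median log2 fold change was -0.24 over the 11 proteases, 0.19 over the receptors and 0.24 over the cytokines, against 0.01 over all 3377 genes.

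With ICB, 1 of 3377 genes passed (0.0296%), and it was higher. None was lower by edgeR, with 74 lower at an unadjusted p under 0.05, and DESeq2 called no gene in either direction (36 at an unadjusted p under 0.05). Here too the count and its split moved with the library left out. No gene was called without PT2385 pool 1 (171 at an unadjusted p under 0.05). Without PT2385 pool 2, 5 of 24 calls were lower, without ICB pool 1, 15 of 37, and without ICB pool 2, 9 of 23. The called gene, Cma2, is a chymase of the same cluster as Cma1 and was a member of the fixed protease list. It stood at 111 CPM in untreated mast cells, at 12.4 and 25.7 with PT2385, and at 496 and 637 with ICB. Both ICB pools lay above the other 3 libraries (log2 fold change 2.30 ± 0.46, edgeR adjusted p = 0.0350, and 2.07e-13 to 1.00 over the alternatives, the lowest from a fit with 1 ICB library). Of all 3377 genes, 23.6% had the ICB pools wholly above or wholly below the other 3 libraries. The combination pools, outside the fit, held Cma2 at 50.1 and 34.3 CPM.

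Few cells carried the Cma2 difference. In ICB pool 1, 13 of 62 mast cells held a Cma2 UMI and 1 cell gave 141 of the 232. In ICB pool 2, 2 of 11 cells held one and 1 cell gave 50 of the 52. Of all 314 Cma2 UMIs in mast cells, 10.5% lay in cells with markers of another type. Without those cells Cma2 stood at 1030 and 1367 CPM in the ICB pools and at 0 to 75.2 in the other libraries. A fit without those cells keeps ICB pool 1 alone for ICB, with its spread taken from the other groups, and gave a log2 fold change of 5.66. Other kept cells held at most 0.0612 CPM.

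The 2 other genes named by the rule for ICB did not pass. Cxcl10, an interferon-induced chemokine, stood at 21.1 CPM untreated, 37.3 and 0 with PT2385 and 146 and 515 with ICB (log2 fold change 3.73 ± 0.80, edgeR adjusted p = 0.0513). Of its 120 UMIs, 113 lay in cells with markers of another type. Fgd4, a regulator of the cytoskeletal GTPase Cdc42, stood at 137 CPM untreated, 80.9 and 64.3 with PT2385 and 15.0 and 24.5 with ICB (log2 fold change -3.03 ± 0.67, edgeR adjusted p = 0.0513), and 29.8% of its 57 UMIs lay in such cells.

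**Figure D4:**
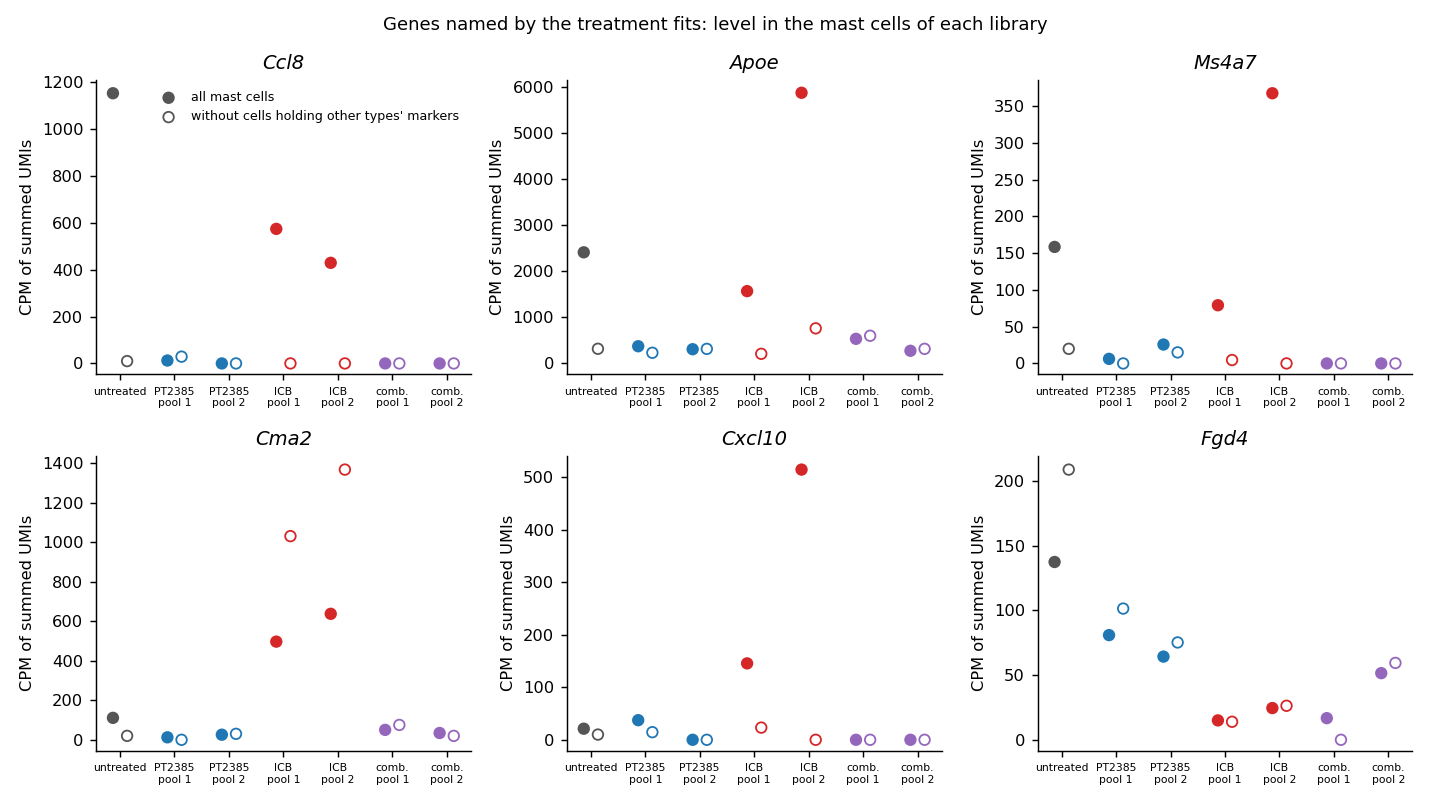
Level of the 6 genes named by the treatment comparisons in the mast cells of each library, as CPM of summed UMIs on linear axes. Filled points are all mast cells and open points are mast cells without markers of another cell type. Without those cells Ccl8 is at most 29.0 CPM and Apoe at most 762 CPM in any library, whereas Cma2 is 1030 and 1367 CPM in the ICB pools. Apoe and Ms4a7 are themselves among the markers.

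The other mast cell lists gave values without a call under ICB by edgeR. All 5 tested amine genes had a log2 fold change at or below 0 (median -0.70), with Tph1 at -0.97 ± 0.36 (SE, edgeR adjusted p = 0.414) and Hdc at -0.01 ± 0.31 (SE, edgeR adjusted p = 0.998). Of 21 receptors 9 were above 0 (median -0.07), of 11 proteases 6 (median 0.17), of 17 cytokine and chemokine genes 9 (median 0.22) and of 10 hypoxia-induced genes 9 (median 0.27). Of 17 tested interferon response genes 16 had a log2 fold change above 0, with a median of 0.73, against 51.5% of all genes and a median of 0.02. None passed. The summed interferon level was 2309 CPM untreated, 3166 and 2018 with PT2385 and 4466 and 3431 with ICB. The 9 macrophage markers were all above 0 with a median of 1.11, and their summed level was highest in ICB pool 2, at 12927 CPM. Their part in the interferon values was not tested. Of 9 proliferation genes, 2 were above 0 with ICB (median -1.15) and 3 with PT2385 (median -0.82). Stmn1, a microtubule regulator of dividing cells, stood at 428 CPM untreated, 274 and 141 with PT2385 and 182 and 73.5 with ICB (log2 fold change with ICB -1.58 ± 0.42, edgeR adjusted p = 0.140). Ccl3 and Ccl4 had 2.93 ± 0.77 and 1.95 ± 0.57 with ICB (edgeR adjusted p = 0.140 and 0.175), and ICB pool 2, with 1189 and 3749 CPM, was the only library of the 5 above 236 and 1481 CPM. In that library 1 cell gave 78 of 97 Ccl3 UMIs and 179 of 306 Ccl4 UMIs. Over all mast cells, 64.2% of Ccl3 and 50.5% of Ccl4 UMIs lay in cells with markers of another type.

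The comparison of mast cells with basophils could be described in 1 library only. Cells with at least 2 UMIs of Mcpt8 and none of Cma1, Mcpt4 or Tpsb2 numbered 85 in ICB pool 1 and 0 to 4 in each other library. In ICB pool 1, Kit gave 251 UMIs in 62 mast cells (537 CPM, exact Poisson 95% interval 473 to 608) and 0 in 85 basophils, where a count of 0 allows up to 5.16 CPM. Tph1 likewise gave 308 and 0 UMIs. Both cell types held Hdc, at 1639 CPM (1525 to 1760) in mast cells and 7158 (6942 to 7378) in basophils. Il4 stood at 169 CPM (134 to 211) in mast cells and 1884 (1774 to 1999) in basophils, and Il6 at 57.8 and 5815. Chemokines also differed: mast cells held Ccl2 at 1489 CPM against 34.4, and basophils held Ccl3 at 12395 against 92.0 and Ccl4 at 19176 against 437. Fcer1a stood at 1748 CPM in mast cells and 175 in basophils, and Ms4a2 at 227 and 322. The Poisson intervals cover counting error only, and 1 library gives no test.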

How the data were processed

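The authors deposited raw UMI counts per gene and cell barcode for each library (10x 3' v3.1 chemistry, per the labels' protocols). The submitters' processing notes name Cell Ranger 2.2.0, Seurat 5 and GRCm39, while the file headers name cellranger 7.0.0. Cells under 300 detected genes or above 10% mitochondrial UMIs were dropped. The cells and gene lists were chosen with earlier results of these data known.

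UMIs were summed over the mast cells of a library and divided by their total (CPM). Shares were compared by exact permutation over 7 libraries (scipy 1.17.1). Genes were fitted over the 5 libraries with at least 10 mast cells with edgeR 4.0.16 (quasi-likelihood, TMM, filterByExpr, additive PT2385 and ICB terms, Benjamini-Hochberg), with DESeq2 1.42.0 as an alternative. The 5 rule genes stayed in the library sizes and out of the tests. Each SE was obtained by dividing the size of a log2 fold change by the root of its F statistic. The fit was tested on simulated data. The genes named are those of the fixed mast cell lists, the drug targets, the 25 genes of highest ratio, and, in each comparison, the 10 largest rises and falls that passed at 50 CPM or more, or the 3 with the smallest p where fewer than 3 passed. Mki67, Stmn1, Fos and Egr1 were chosen after their values were seen. The alternatives with all 7 libraries and without the Mcpt8 condition were chosen after seeing the data. A test of mast cells against basophils was planned and not run, because 1 library held 10 of both.

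Depth was 58256 to 467284 UMIs per library in mast cells, so 1 UMI is worth 2.14 to 17.2 CPM. No library, gene or cell was imputed. Promoter sequences are from RefSeq (GRCm38.p6) and transcripts from GENCODE.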

Additional observations from a re-analysis of the deposited data

Results flagged for a closer look

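Of 30 sets of 4 libraries checked for a library far from the others (the share and 14 named genes, with PT2385 and with ICB), 2 held one. About 1 in 20 such sets is picked out by chance.

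The share of mast cells in ICB pool 1 was 1.05% of kept cells, and the next highest of the 4 libraries with ICB held 0.189%. The gap was 0.929 of the range, above the 0.829 that Dixon's criterion asks of 4 values. The same library held 85 of the 92 cells of the basophil rule and 15 of the 20 mast cells near the thresholds. With both thresholds at 5 UMIs its share was 0.782%, still the highest of the 7. Whether the pool's mice, dissection or sort differed was not tested.

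Kit in the mast cells of combination pool 2 was 961 CPM, and the other 3 libraries with ICB lay between 537 and 585 CPM, a gap of 0.888 of the range. That library rests on 8 mast cells.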

How the results depend on the processing

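The PT2385 share difference was negative under all 16 alternatives (exact permutation p 0.114 to 0.933). Leaving out 1 library each moved it between -0.436 and -0.00391 percentage points. The ICB share difference turned negative with 500 genes and 5% mitochondrial UMIs as limits (-0.0171), with both thresholds at 5 UMIs (-0.0344) and after thinning to 2000 UMIs (-0.0509), and ran from -0.204 to 0.106 when 1 library was left out, with -0.0158 without PT2385 pool 2. Counts of called genes, 2 with PT2385 and 1 with ICB, became 4 and 10 with RLE scaling, 1 and 0 with DESeq2, and 8 and 13 without the filter on low counts. They became 19 and 8 without cells holding other types' markers, where ICB pool 2 dropped out, and 7 and 6 with both thresholds at 5 UMIs. With the stricter cell filter they were 2 and 5. With 1 factor alone they were 1 and 1. Leaving out 1 library gave 9 to 21 and 0 to 37. Alternatives added after the data were seen gave 3 and 0 with all 7 libraries and 1 and 0 without the Mcpt8 condition. Ccl8 passed in each of the 12 alternatives in which it was tested, Apoe in 9 of 13 and Cma2 in 9 of 13. Without cells holding other types' markers, Ccl8 fell under the filter on low counts and was not tested. Ms4a7 passed in 6 of 12, Cxcl10 in 5 of 11 and Fgd4 in 6 of 12. The fit without the untreated library could not be made, since the treatments then cannot be told apart, and no alternative of the basophil comparison was run. No paired analysis was possible because the labels give no replicate number shared between groups, and the pool numbers follow accession order. The limits are the 6 to 62 mast cells per library, the 2 residual degrees of freedom of the gene fits, and the single untreated library.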
